A study of Homo sapiens with 7 samples.

Results

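Divergent promoter pairs are places where 2 protein-coding genes lie on opposite strands, start close to each other and are transcribed away from each other. They were taken from the GENCODE annotation on GRCh37 with the 5′ most start site of each gene and at most 1000 bp between the start sites. A loop anchor, 1 of the 2 genomic intervals that a chromatin loop joins, was a member where it held both start sites of such a pair. The members numbered 1900 of 159981 anchors in 3 loop lists: 517 of 95281 in Ishikawa (0.543%), 663 of 21151 in T-47D (3.13%) and 720 of 43549 in LNCaP (1.65%). They are called divergent anchors here, and anchors with the start site of exactly 1 protein-coding gene are called one-start anchors (5981 in the Ishikawa list, 6375 in T-47D and 6888 in LNCaP).

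The loops came from HiChIP, which captures contacts between distant pieces of chromatin and enriches them with an antibody, here against acetylation of histone H3 at lysine 27 (H3K27ac), a mark of active promoters and enhancers. Ishikawa is an endometrial adenocarcinoma line with 4 samples, 2 of them given the vehicle DMSO and 2 given 10 nM beta-estradiol, each for 1 h. T-47D is a breast ductal carcinoma line with 1 sample and LNCaP a prostate carcinoma line with 2 samples, and the labels name no treatment for either. All samples of a line, Ishikawa treatments included, were merged into 1 list, so there was no replicate error and no test between conditions. Ishikawa chromatin was cut with DpnII and sheared with a probe sonicator, that of T-47D and LNCaP was cut with MboI and sheared in a Covaris instrument. Both enzymes cut at GATC sites. Ishikawa libraries were also sequenced on another instrument, with shorter reads and to more read pairs per sample. The effects of cell line and of these steps cannot be told apart.

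The lists held 1040329 read pairs in 163530 loops (Ishikawa), 351260 in 42027 (T-47D) and 1805322 in 149226 (LNCaP), all with 3 or more read pairs per loop. The anchors covered 564 Mb in Ishikawa, 60.2 Mb in T-47D and 170 Mb in LNCaP. As a check of the labels, read pairs at the promoters of KLK3 and TMPRSS2 were highest in LNCaP, those of GATA3 and TRPS1 in T-47D, and those of PAX8, SOX17 and EMX2 in Ishikawa. TFF1, listed as a T-47D marker, had 0 read pairs in T-47D and Ishikawa and 58 in LNCaP. In Ishikawa, 3 chromosome segments with dense loops (the end of the long arm of chromosome 3, chromosome 10 from 74 Mb and chromosome 12 up to 73 Mb) held 10.5% of the anchors, and divergent anchors had a median of 7.5 partners inside them against 2 outside. One-start anchors in the same places had 8 and 3, and outside the segments the comparison below ran in the same direction in each list.

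Divergent pairs are a common arrangement in the human genome. The shared stretch between the start sites often lies in a CpG island, commonly lacks a TATA box and can drive transcription in both directions, and many of the genes serve housekeeping functions such as DNA repair, chromatin assembly and mitochondrial function. As the start sites are closer together than the anchors are wide, a loop cannot be assigned to either gene of the pair.

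The annotation held 883 divergent pairs, made of 1703 of 20162 protein-coding genes (8.45%). The gap between the start sites was short, with a median of 130 bp, quartiles of 68 and 246 bp and a range from 0 to 994 bp. The bases between the start sites are printed below for 4 pairs that were held by anchors of all 3 lists and ranked high in partners, since this is the stretch both promoters share, and for 1 histone pair, chosen after its values were seen because histone pairs reached the highest partner numbers in T-47D and LNCaP. They were read from GRCh37 on the plus strand, 5′ to 3′, so the gene on the minus strand starts just before the first base and the gene on the plus strand just after the last. Capitals mark matches on either strand to the CCAAT box (its own 5 letters), the GC box (GGGCGG), the ETS core (CCGGAA), the E box (CACGTG), the TATA box (TATAAA) and the sites of NRF1 (GCATGCGC), YY1 (AAGATGGC) and CRE binding factors (TGACGTCA).
CBX5/HNRNPA1, chr12:54673918-54673976: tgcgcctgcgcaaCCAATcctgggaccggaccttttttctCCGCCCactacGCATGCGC
ALG3/EEF1AKMT4, chr3:183967337-183967459: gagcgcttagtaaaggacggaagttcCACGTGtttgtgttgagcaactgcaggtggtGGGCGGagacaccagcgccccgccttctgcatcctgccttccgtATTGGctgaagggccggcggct
CLIC1/MSH5-SAPCD1, chr6:31707541-31707796: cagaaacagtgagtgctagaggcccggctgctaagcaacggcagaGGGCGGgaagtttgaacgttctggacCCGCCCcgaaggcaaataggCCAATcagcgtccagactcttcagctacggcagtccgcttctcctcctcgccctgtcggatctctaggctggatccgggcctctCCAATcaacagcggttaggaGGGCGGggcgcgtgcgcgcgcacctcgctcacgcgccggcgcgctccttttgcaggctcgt
SIL1/MATR3, chr5:138629247-138629362: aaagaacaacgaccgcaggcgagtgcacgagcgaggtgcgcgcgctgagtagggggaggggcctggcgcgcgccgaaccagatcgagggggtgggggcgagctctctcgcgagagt
H2BC4/H2AC6, chr6:26124155-26124372: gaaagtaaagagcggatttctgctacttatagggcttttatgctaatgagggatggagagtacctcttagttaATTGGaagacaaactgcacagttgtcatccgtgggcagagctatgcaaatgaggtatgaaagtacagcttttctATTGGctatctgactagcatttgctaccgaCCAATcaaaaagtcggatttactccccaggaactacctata
The 59 bp between CBX5, which encodes heterochromatin protein HP1 alpha, and HNRNPA1, a splicing factor, held a CCAAT box, a GC box and an NRF1 match. The 123 bp between ALG3, a mannosyltransferase of N-glycan assembly, and EEF1AKMT4, a methyltransferase of elongation factor 1A, held a CCAAT box, a GC box and an E box. The stretch between SIL1, a co-chaperone of the endoplasmic reticulum, and MATR3, a nuclear matrix protein, was 69.8% G and C and matched none of these letters. The stretch between the histone genes H2BC4 and H2AC6 differed from the other 4 in its base composition, with 41.7% G and C, 4 CpG dinucleotides in 218 bp and 3 CCAAT boxes.

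The same features were counted over the promoters of all protein-coding genes, from 250 bp before to 50 bp after the start site. Of the promoters of divergent pairs 87% (85.3 to 88.5) were CpG-rich, taken as 50% or more G and C with an observed over expected CpG ratio of 0.6 or more, against 54.9% of all promoters and 66% of those that were the only start site of an anchor in any list. The brackets here and below hold 95% Wilson intervals, which cover counting error only. The TATA box letters were found in 4.99% of divergent promoters against 10.9% of all promoters. The ETS letters, the core bound by factors such as GABPA, were found in 39.9% (37.6 to 42.2) against 19.4%, and the NRF1 letters in 8.81% against 3.76%. The YY1 letters were found in 6.34% against 3.02%, the CRE letters in 4.17% against 2.29% and the GC box letters in 72.2% against 52.1%. The CCAAT box was found in 40.3% against 35.8% and the E box in 10.3% against 8.33%. Promoters that were the only start site of an anchor had 8.95% (TATA box), 22.1% (ETS), 4.39% (NRF1) and 3.54% (YY1). They had 2.61% (CRE), 60.6% (GC box), 36.5% (CCAAT box) and 9.15% (E box). For the E box their interval (8.59 to 9.74) overlapped that of divergent promoters (8.98 to 11.9). The ETS, NRF1, CRE, GC box and E box letters contain CG, and the part of base composition was not tested. The 2 promoters of a close pair overlap in these windows, so their matches are not independent.

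**Figure D1:**
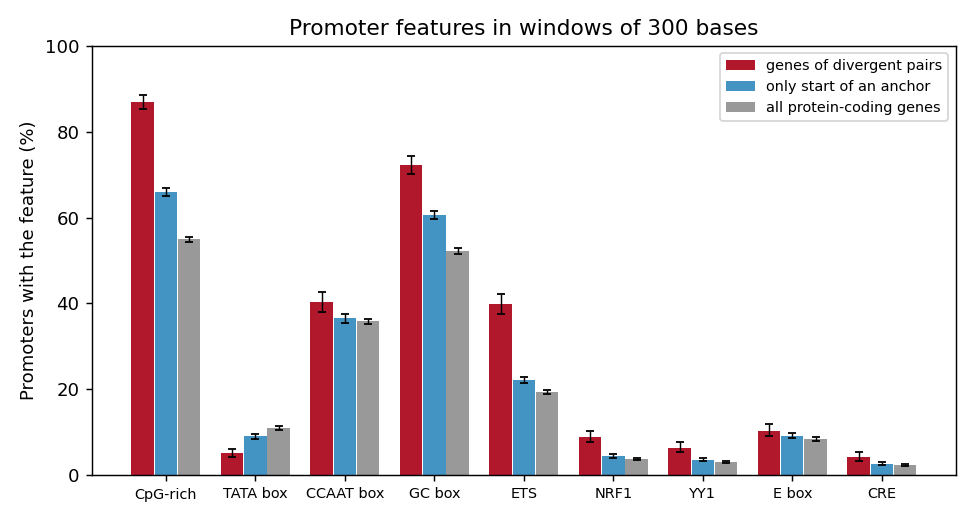
Percent of promoters (y axis) that were CpG-rich or held the letters of each motif on either strand (x axis), for genes of divergent pairs, genes that were the only start site of an anchor in any list and all protein-coding genes. Bars start at 0 and the error bars are 95% Wilson intervals. Divergent promoters were higher for CpG richness (87%), the GC box and ETS (39.9%) and lower for the TATA box (4.99%).

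Most divergent pairs lay inside loop anchors, and they did so more often than other genes in each list. Both start sites were in 1 anchor for 559 of 883 pairs in Ishikawa (63.3%, 60.1 to 66.4), for 714 in T-47D (80.9%, 78.1 to 83.3) and for 780 in LNCaP (88.3%, 86 to 90.3). Of the 18459 genes in no divergent pair, the start site was in an anchor for 40.6% in the Ishikawa list, 42.9% in the T-47D list and 48% in the LNCaP list. Gene by gene, the genes of divergent pairs reached 63.4%, 81.4% and 88.4%, and the intervals of both classes did not overlap in any list. CpG-rich promoters narrowed the difference without closing it. Among CpG-rich genes, 64.8% of those in pairs and 49.8% of the others had the start site in an anchor in Ishikawa, 85% and 63.8% in T-47D, and 91.4% and 69.1% in LNCaP. Ishikawa, whose anchors covered the most genome, held the fewest pairs.

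**Figure D2:**
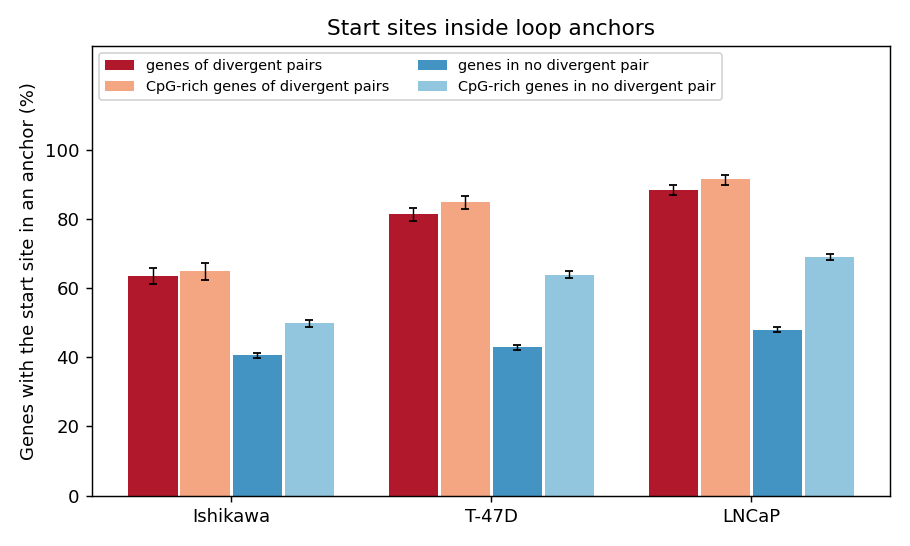
Percent of genes with the start site inside a loop anchor (y axis) in each list (x axis), for genes of divergent pairs and genes in no divergent pair, each also for CpG-rich promoters alone. Error bars are 95% Wilson intervals. In each list both bars of the divergent pairs stand above both bars of the other genes, at 63.4% and 64.8% against 40.6% and 49.8% in Ishikawa.

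Of the 883 pairs, 474 (53.7%) were held in all 3 lists, 277 (31.4%) in 2, 77 (8.72%) in 1 and 55 (6.23%) in none. Other genes were spread otherwise, with 23.8% in all 3 lists and 36.5% in none. Of the pairs held in T-47D 96.6% were also held in LNCaP, and of those held in LNCaP 88.5% in T-47D. Of the Ishikawa pairs 94.1% were also held in LNCaP and 86.4% in T-47D, while 67.4% of LNCaP pairs and 67.6% of T-47D pairs were held in Ishikawa. Both promoters were CpG-rich in 87.8% (84.5 to 90.4) of the pairs held in all 3 lists, in 81.2% of those in 2, in 70.1% of those in 1 and in 54.5% (41.5 to 67) of those in none. The ETS letters were in at least 1 promoter of 48.9% and 48.4% of the pairs in 3 and 2 lists, and of 29.9% and 27.3% of those in 1 and in none.

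Some of the 55 pairs held in none of the lists, picked after their values were seen, had genes known from other tissues. They were COL4A4/COL4A3, collagen IV chains of the kidney glomerulus, GABRA4/GABRB1, GABA receptor subunits of neurons, and DUOX2/DUOXA2, an oxidase of the thyroid and its maturation factor. MAGEA12/CSAG1, cancer-testis antigens, and OR11A1/OR2H1, olfactory receptors, were also among them. Other unheld pairs had genes of DNA repair and replication (RAD51D/FNDC8, PRSS54/GINS3) or zinc finger genes (LYPD5/ZNF283, SATL1/ZNF711). The 55 pairs were not sorted by tissue. COL4A6/COL4A5, the other collagen IV pair, was held in LNCaP only. On the X chromosome 17 of 24 pairs were held in T-47D and 16 in LNCaP but 0 in Ishikawa, whose list had 172 anchors there against 426 in T-47D and 1203 in LNCaP. Without the X chromosome the pairs held came to 65.1%, 81.1% and 88.9% of 859. The intervals of the shares held overlapped between gap sizes up to 500 bp in each list, and in T-47D pairs with gaps over 500 bp were held less often (65.8%, 54.6 to 75.5, of 76 pairs) than those with gaps of up to 100 bp (83.3%, 79.1 to 86.9, of 348).

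Once in an anchor, divergent pairs had as many partners at the median as single promoters in Ishikawa and more in T-47D and LNCaP. A partner is another anchor on the same chromosome that a loop joins to the anchor. The median was 3 partners in Ishikawa for both classes (means of 3.94 and 4.22), 4 against 3 in T-47D (5.07 and 4.52) and 10 against 8 in LNCaP (11.4 and 9.44). More partners than the median one-start anchor were found at 37.3% (33.3 to 41.6) of divergent anchors in Ishikawa, where 41% of one-start anchors exceed their own median. In T-47D the share was 53.1% (49.3 to 56.9) against 46.3%, and in LNCaP 56.5% (52.9 to 60.1) against 44.7%. The difference was -3.68 percentage points in Ishikawa (95% interval -7.93 to 0.743), which includes 0 and within width deciles came to 0.0309 points, 6.82 points in T-47D (2.82 to 10.8) and 11.8 points in LNCaP (7.98 to 15.6). With only loops of 5 or more read pairs the T-47D difference was 1.74 points (-2.24 to 5.73), which includes 0. At the upper end, 10 or more partners were reached by 7.74% of divergent anchors against 9.21% of one-start anchors in Ishikawa, 12.5% against 11.9% in T-47D and 50.8% against 40% in LNCaP.

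Read pairs, summed over the loops of an anchor, followed the same order. Their median was 13 at divergent and 15 at one-start anchors in Ishikawa, 22 and 17 in T-47D, and 80 and 55 in LNCaP. The share above the one-start median was 44.7% (40.5 to 49) against 48% in Ishikawa, 54.8% (50.9 to 58.5) against 49.5% in T-47D and 61.5% (57.9 to 65) against 49.5% in LNCaP. Read pairs are not scaled for depth, so levels are not compared between the lists. By chromosome, the mean number of partners was higher at divergent anchors on 19 of 21 chromosomes with 10 or more divergent anchors in LNCaP, on 12 of 21 in T-47D and on 6 of 19 in Ishikawa.

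**Figure D3:**
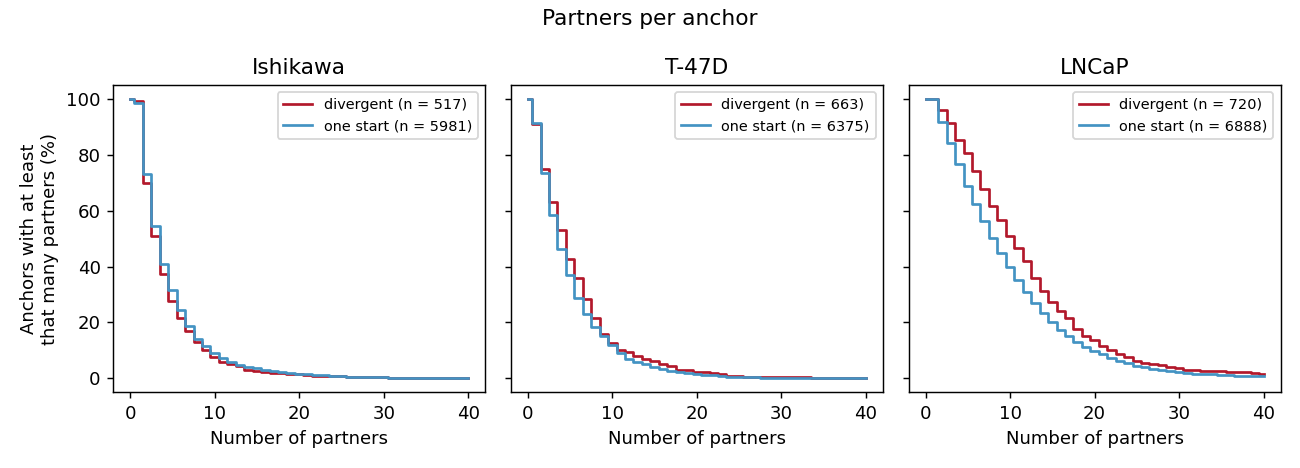
Percent of anchors (y axis) with at least the number of partners on the x axis, from 0 to 40, for divergent and one-start anchors of each list. At 4 or more partners the divergent curve lies below the other in Ishikawa (37.3% against 41%) and above it in T-47D (53.1% against 46.3%), and in LNCaP it lies above, where 50.8% against 40% reached 10 partners.

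Part of the difference in LNCaP moved with anchor width. Divergent anchors had a median width of 4416 bp against 4040 bp in LNCaP, 2893 against 2856 bp in T-47D and 5343 against 5571 bp in Ishikawa. Within LNCaP the mean number of partners rose from 5.69 in the narrowest to 17.2 in the widest quartile for divergent anchors and from 4.89 to 15.9 for one-start anchors. Every edge of every divergent anchor lay at a GATC site, the site that both enzymes cut. In T-47D mean partners of both classes rose more with the number of other protein-coding start sites within 250 kb than with width. Divergent anchors had means of 2.55 partners in the quartile with the fewest such sites and 9.52 in that with the most. One-start anchors had 2.84 and 7.68. Divergent anchors thus had the lower mean in the first of these quartiles, as in the third (4.02 against 4.7), and the higher mean in the others. As ratios of mean partners, divergent over one-start, the lists gave 0.933 in the Ishikawa list, 1.12 in T-47D and 1.21 in LNCaP. Within quartiles of both width and neighbouring start sites, an alternative chosen after the data were seen, these ratios were 0.981, 1.06 and 1.07. Within quartiles of width alone they were 1.01, 1.11 and 1.09, and within quartiles of neighbouring start sites alone 0.922, 1.09 and 1.19. Ratios of mean read pairs within quartiles of both were 0.96, 1.05 and 1.03, and without histone genes, which are described below, 0.965, 0.987 and 0.975.

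Against the other kind of anchor with 2 start sites, those whose genes form no divergent pair, divergent anchors had fewer partners in all 3 lists, which turned the direction in T-47D and LNCaP. Divergent anchors with exactly 2 start sites had a mean number of partners 0.811 times that of these anchors in Ishikawa, 0.878 times in T-47D and 0.847 times in LNCaP. The means were 4.65, 5.46 and 12.7 partners at 649, 703 and 844 anchors with 2 start sites outside divergent pairs. These anchors were also the wider ones, with a median of 6108 bp in Ishikawa, 3010 bp in T-47D and 4662 bp in LNCaP. They had medians of 9, 7 and 8 other start sites within 250 kb, in the same order of lists. Divergent anchors with exactly 2 start sites had 7, 6 and 6. The parts of width and of neighbouring start sites in the difference in partners were not tested. In T-47D and LNCaP the order of mean partners was therefore one-start anchors, divergent anchors and anchors with 2 start sites in no divergent pair, while in Ishikawa divergent anchors were lowest.

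**Figure D4:**
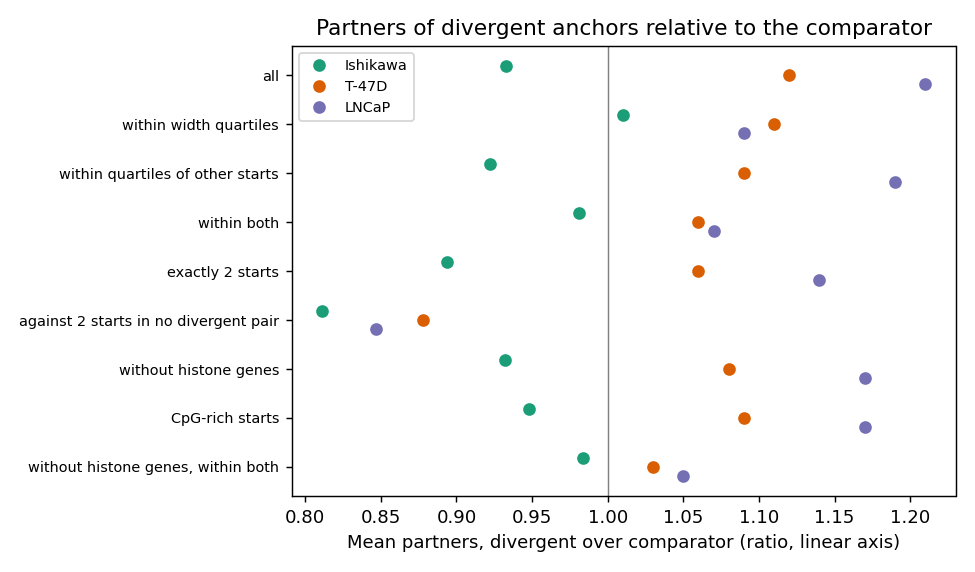
Mean number of partners of divergent anchors divided by that of the comparator (x axis, linear, 1 marked by the line), for the 3 lists and 9 choices of members and comparator (y axis). Values for T-47D and LNCaP lie above 1 in each choice other than that against anchors with 2 start sites in no divergent pair, where all 3 lists lie between 0.811 and 0.878.

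Promoters made up more of the partners of divergent anchors than of one-start anchors. Partners that hold a protein-coding start site made up 19.4% of the partners of all divergent anchors in Ishikawa cells, 55.8% in T-47D and 40.1% in LNCaP. The shares were 15%, 51% and 36.8% for one-start anchors and 22%, 55% and 42.5% for anchors with 2 start sites in no divergent pair. Divergent anchors with exactly 2 start sites had 16.9%, 54.5% and 38.3%. These were below the shares of the other anchors with 2 start sites in each list, though by little in T-47D. The ratio of mean promoter partners was 1.21, 1.23 and 1.31 in the order Ishikawa, T-47D, LNCaP, and that of mean distal partners, which hold no such start site, 0.884, 1.01 and 1.14. Within quartiles of width and neighbouring start sites the ratios for promoter partners were 1.07, 1.14 and 1.11, and those for distal partners 0.963, 0.983 and 1.04. For divergent anchors with exactly 2 start sites the promoter-partner ratio to one-start anchors was 1.01, 1.13 and 1.18, and to anchors with 2 start sites in no divergent pair it was 0.625, 0.869 and 0.763. These ratios were not matched for width or neighbouring start sites. The number of promoter partners rose with the number of start sites within 250 kb, as a Spearman correlation across anchors of 0.435 in Ishikawa (517 anchors), 0.597 in T-47D (663) and 0.68 in LNCaP (720). One-start anchors gave 0.443, 0.593 and 0.622. Anchors of a list share its libraries and overlapping neighbourhoods, so these are descriptions.

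Loops that join 2 divergent anchors numbered 18 in the Ishikawa list, 92 in that of T-47D and 169 in that of LNCaP, which is 0.892%, 2.81% and 2.11% of the loops with a divergent anchor at either end. Among the partners of divergent anchors 1.77%, 5.47% and 4.13% were divergent anchors themselves, against 0.623%, 4% and 2.74% of the partners of all anchors, 1.12%, 4.96% and 3.64% for one-start anchors and 2.02%, 6.38% and 4.53% for anchors with 2 start sites in no divergent pair. The strongest in Ishikawa joined CBX5/HNRNPA1 to NFE2/COPZ1, a hematopoietic transcription factor and a coatomer subunit, with 12 read pairs over 24.4 kb. In T-47D and LNCaP the strongest joined the same histone genes, H2BC13/H2AC13 to H3C12/H2BC17, with 45 read pairs over 83.9 kb in T-47D and 213 over 81.8 kb in LNCaP. The longest among the 3 strongest of any list ran 662 kb in T-47D, from H2BC12/H2AC12 to H2BC13/H2AC13, with 39 read pairs. Combinations of 2 divergent pairs joined in all 3 lists numbered 7, with the contact of MED31/C17orf100 counted under both KIAA0753/TXNDC17 and ENSG00000282936/TXNDC17. Among them, BET1L/RIC8A was joined to SIRT3/PSMD13, a mitochondrial deacetylase and a proteasome subunit, by 3 read pairs in Ishikawa cells, 27 in T-47D and 131 in LNCaP with 29.3 kb between their plus-strand start sites. VPS52/RPS18 was joined to WDR46/PFDN6 by 3, 18 and 77 read pairs, 17.2 kb apart.

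Histone pairs stood at the top in T-47D and LNCaP. Replication-dependent histone genes are clustered, and many H2A and H2B genes are arranged head to head. Of 69 such genes 23 (33.3%, 23.4 to 45.1) were in divergent pairs, against 8.45% of all genes, and they made 12 pairs. Their anchors had a median of 24 partners and 238 read pairs in T-47D, where all divergent anchors had 4 and 22, and of 41 partners and 902 read pairs in LNCaP, where all had 10 and 80. In Ishikawa 6 of the 12 pairs were held, where 63.3% of all divergent pairs were, with a median of 3.5 partners against 3. H2BC4/H2AC6, whose stretch with 3 CCAAT boxes is printed above, had 4 partners and 26 read pairs in the Ishikawa list, 27 and 442 in that of T-47D, and 40 and 1562 in that of LNCaP. H2BC13/H2AC13 was in no Ishikawa anchor and had 33 partners in T-47D (25 of them promoters) and 64 in LNCaP (26 promoters), where the anchor also held H2AC14/H2BC14. H2BC12/H2AC12 had 3, 25 and 42 partners, and H3C7/H2BC9, with a gap of 978 bp, had 8 in Ishikawa and 33 in T-47D. H2AC1/H2BC1, a pair of testis histones, was in no anchor of any list. In T-47D the other start sites within 250 kb numbered 35 at H3C7/H2BC9, 33 at H2BC4/H2AC6, 16 at H2BC13/H2AC13 and 6 at H2BC12/H2AC12, where all divergent anchors had a median of 6. Near-identical histone coding sequences can take reads from each other, and the part of this was not tested. Without histone genes the ratio of mean partners was 0.932, 1.08 and 1.17 in Ishikawa, T-47D and LNCaP.

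Other gene groups were taken from lists of symbols, so some members are not what the group name says. The cytosolic ribosome group took in RPS6KB1, a kinase, the proteasome group PSME3IP1 and the respiratory chain group assembly factors such as NDUFAF2. The counts, shares and medians below include such genes. DNA repair and replication genes were in divergent pairs in 37 of 120 cases (30.8%, 23.3 to 39.6), subunits of RNA polymerases in 9 of 34 (26.5%), genes of the respiratory chain in 24 of 97 (24.7%) and mitochondrial ribosomal proteins in 17 of 78 (21.8%). The proteasome group (7 of 50, 14%), the cytosolic ribosome group (14 of 101, 13.9%) and tRNA synthetases (3 of 34, 8.82%) lay closer to the 8.45% of all genes. ZNF genes, which encode zinc finger proteins, were in pairs in 34 of 515 cases (6.6%), olfactory receptors in 3 of 415 (0.723%) and keratins in 0 of 55. The 9 pairs with RNA polymerase subunits were held in all 3 lists, where 53.7% of all 883 pairs were. Their median partner number was 4 in the Ishikawa list, 10 in T-47D and 13 in LNCaP. Respiratory chain pairs were held in 18, 22 and 24 of 25 cases, where 63.3%, 80.9% and 88.3% of all pairs were held. They had few partners, with medians of 2, 2 and 6, below those of all divergent anchors in each list. Pairs of the cytosolic ribosome group had a median of 1 partner in Ishikawa cells, 8 in T-47D and 19 in LNCaP. They lay below the median of all divergent anchors in the first list and above it in the others. DNA repair and replication pairs had medians of 2, 4 and 12.

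**Figure D5:**
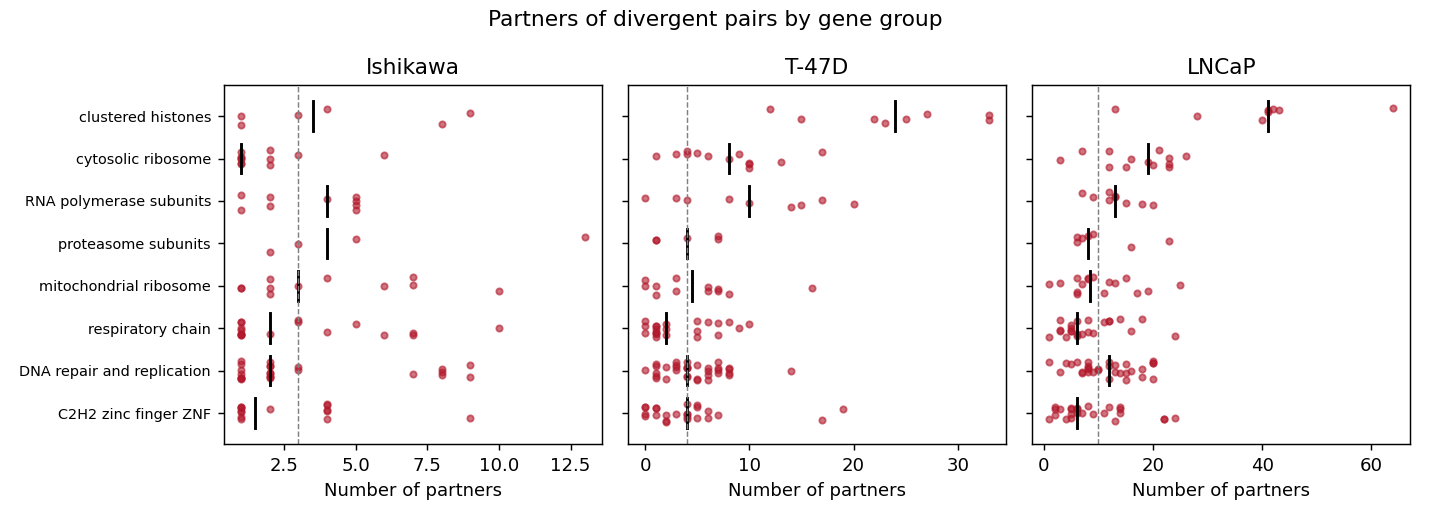
Number of partners (x axis) of each anchor over a divergent pair with a gene of the group (y axis), in each list. Points are anchors, with vertical jitter, black lines are group medians and the dashed line is the median of all divergent anchors. Anchors over clustered histones reach 33 partners in T-47D and 64 in LNCaP.

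The anchors with the most partners differed between the lists. In Ishikawa they were ATP13A4/OPA1, a transport ATPase and the fusion GTPase of the inner mitochondrial membrane, with 43 partners and 319 read pairs, CAPG/SH2D6, with 30 and 336, ARL3/SFXN2, with 27 and 367, RNF41/NABP2, with 25 and 338, and ZDHHC19/SLC51A, with 25 and 259. The anchor over PHB2/EMG1, prohibitin 2 and a methyltransferase of ribosome assembly, had 16 partners and 324 read pairs, of which 150 were in 1 loop. All of these 6 anchors other than CAPG/SH2D6 lay in the 3 dense segments, and their widths, 9290 to 25472 bp, were above the Ishikawa median of 5343 bp. ATP13A4/OPA1 had only 1 other start site within 250 kb, and 41 of its 43 partners were distal. RNF41/NABP2, a ubiquitin ligase and a single-stranded DNA binding protein, had 24 neighbouring start sites, and 11 of its 25 partners were promoters.

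In T-47D the 5 anchors with the most partners were 4 histone anchors, with 25 to 33 partners, and ANAPC2/SSNA1, with 26. ANAPC2 encodes a core subunit of the anaphase-promoting complex and SSNA1 a centrosomal protein, and their anchor had the most read pairs of any T-47D divergent anchor, 630, of which 228 were in 1 loop. ALG3/EEF1AKMT4, whose stretch is printed above, followed the histones with 367 read pairs and 21 partners, 13 of them promoters. In LNCaP the anchor over PRAC1/PRAC2, small genes expressed in prostate, had the most read pairs, 3243, of which 1364 were in 1 loop, and 46 partners. That anchor was 21672 bp wide and also held the start site of HOXB13, the prostate homeobox factor. RNF41/NABP2 had 44 partners in LNCaP, 27 of them promoters, CBX5/HNRNPA1 had 43 and H2AC15/H2BC15 43. PHB2/EMG1 reached 1748 read pairs and CSNK1A1/ARHGEF37, with casein kinase 1 alpha, 1329, with 37 of its 42 partners distal.

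Among pairs held in 1 list only, those with the most partners were ATP13A4/OPA1, ZDHHC19/SLC51A and SRMS/FNDC11 (10 partners, 79 read pairs) in Ishikawa. In T-47D they were RPP25/SCAMP5 with 7 partners and 40 read pairs, GGN/SPRED3 with 5 and 26, and KIF18A/METTL15, a mitotic kinesin and a mitochondrial methyltransferase, with 4 and 13. In LNCaP they were H2AC14/H2BC14, PRAC1/PRAC2 and BLVRB/SPTBN4, with 18 partners and 380 read pairs. The pairs held by 1 list were 24 in the Ishikawa list, 15 in T-47D and 38 in LNCaP.

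The pairs with the best mean rank of partners over all 3 lists were RHOF/SETD1B, MAP3K12/TARBP2, CBX5/HNRNPA1, ENSG00000285133/MBD6 and ALG3/EEF1AKMT4. RHOF/SETD1B, a small GTPase and a histone H3 lysine 4 methyltransferase, had 14 partners in Ishikawa cells, 17 in T-47D and 41 in LNCaP, and its read pairs numbered 116, 269 and 701. MAP3K12/TARBP2, a stress kinase and a partner of Dicer, had 11, 19 and 32 partners. CBX5/HNRNPA1 had 10, 15 and 43, and ALG3/EEF1AKMT4 had 8, 21 and 28. All but the last lie on chromosome 12, 3 of them in its part that was dense in Ishikawa. Over the pairs held in both lists of a comparison, with pairs in the same anchors counted once, the Spearman correlation of partner numbers was 0.496 between T-47D and LNCaP (639 anchors), 0.113 between Ishikawa and T-47D (447) and 0.0824 between Ishikawa and LNCaP (485). One-start genes gave 0.468, 0.142 and 0.0446, so the order of partner numbers was shared between T-47D and LNCaP and hardly with Ishikawa in either class.

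Among gene pairs known as examples of shared promoters, 9 met the rule. HSPD1/HSPE1, COL4A1/COL4A2, SURF1/SURF2, TAP1/PSMB9, GART/SON and POLR3E/CDR2 have 5′ most annotated start sites that pass each other, so the transcripts overlap and the rule does not take them. MRPS12/SARS2, a mitochondrial ribosomal protein and the mitochondrial seryl-tRNA synthetase, had the most partners of the 9 in each list, 7 in the Ishikawa list, 8 in T-47D and 19 in LNCaP, with 34, 48 and 314 read pairs. ATM/NPAT, the DNA damage kinase and the coactivator of histone genes, had 2, 6 and 16 partners with 11, 23 and 122 read pairs. PPAT/PAICS, enzymes of purine synthesis, had 2, 4 and 8 partners, and PDCD10/SERPINI1 had 5, 3 and 6. PRKDC/MCM4, the kinase of end joining and a helicase subunit, had a gap of only 6 bp and had 2 partners in Ishikawa cells, 0 in T-47D and 4 in LNCaP. PSENEN/U2AF1L4 and TBP/PSMB1 were held in Ishikawa (5 and 2 partners) and LNCaP (18 and 8) but not in T-47D, and MRPL32/PSMA2 in T-47D (1 partner) and LNCaP (7) but not in Ishikawa. RAD51D/FNDC8 was held in none of the lists.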

How the data were processed

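H3K27ac HiChIP was measured in 7 samples of 3 cell lines (4 Ishikawa, 1 T-47D, 2 LNCaP). The authors aligned reads to hg19 with HiC-Pro, called loops with hichipper and kept those with 3 or more read pairs and a low false discovery rate, and the deposited lists, 1 per cell line, give counts of read pairs per loop in column 8 with no scaling. The versions are not given in the sources used here. The merged lists hold no replicates, so no test was run, and 95% Wilson intervals, or for differences intervals that combine both Wilson intervals, cover counting error only. PCR duplicates and shared neighbourhoods are outside them.

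Here the rows of 1 anchor pair in the 4 parts of the Ishikawa list, whose meaning is not given in the sources used here, were summed, rows that join an anchor to itself or to another chromosome were set aside, and partners and read pairs were counted per anchor. Genes came from GENCODE v44 lifted to GRCh37 (20162 protein-coding genes), with 1 start site each for the rule and all annotated start sites for the cell line markers. Python 3.11.15, pandas 2.3.3, numpy 2.4.6, scipy 1.17.1 and pyfaidx 0.9.0.4 were used, and the counting was tested on simulated anchors. Named genes were, per list, the 5 divergent anchors with the most partners and the 5 with the most read pairs, the 3 pairs with the most partners among those held in that list only, the 5 pairs of all 3 lists with the best mean rank, the known pairs and the strongest loop between divergent anchors. Members and lists were chosen with earlier results of these data known. A marker gene and a known pair on these lists are not reported here.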

Additional observations from a re-analysis of the deposited data

Results flagged for a closer look

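The difference between divergent and one-start anchors ran in opposite directions in Ishikawa and in the other lists. The share above the one-start median differed by -3.68 percentage points for partners and by -3.27 points for read pairs in Ishikawa, by 6.82 and 5.21 points in T-47D and by 11.8 and 12 points in LNCaP. Each list is 1 merged set, so the difference between lists was not tested, and both Ishikawa intervals include 0. Within width deciles the Ishikawa differences were 0.0309 points for partners and -0.0975 for read pairs, so no opposite direction was seen at matched width. Without the dense segments the partner difference was -4.9 points (-9.16 to -0.352), and with one-start anchors defined by any annotated start site -6.49 points (-10.6 to -2.15).

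In T-47D, 3 rows outside the comparisons joined a divergent anchor to another chromosome, with 9 read pairs in all and 3 in each. TRADD/FBXL8 on chromosome 16 was joined to 2 anchors without a protein-coding start site on chromosome 12, and POMT2/GSTZ1 on chromosome 14 to 1 on chromosome 7. The list had 66 such rows with 295 read pairs over all anchors, and the Ishikawa and LNCaP lists had 0.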

How the results depend on the processing

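Of 95 values under other settings, 79 stayed within the interval of the reported value, 12 left it with the same sign and 4 left it and turned. Of the 79, 2 changed sign near 0, the Ishikawa partner difference, at 0.0309 percentage points within width deciles and 0.316 within quartiles of width and neighbouring start sites. The 4 that turned compared divergent anchors with anchors holding 2 start sites in no divergent pair. In T-47D they were -3.83 percentage points for partners (-9.07 to 1.44) and -4.85 for read pairs (-10.1 to 0.448), and both intervals include 0. In LNCaP they were -6.04 (-10.9 to -1.09) and -7.24 (-12.1 to -2.28), and both exclude 0. Within width deciles the LNCaP differences fell to 7.01 points for partners and 6.74 for read pairs, and within quartiles of width and neighbouring start sites, chosen after the data were seen, to 5.18 and 7.23. In T-47D a minimum of 5 read pairs per loop gave 1.74 points for partners (-2.24 to 5.73), and adding the read pairs of an anchor with itself gave 10.4 for read pairs. The T-47D interval also included 0 for read pairs at a minimum of 5 (2.07), for both measures at a minimum of 10 (3.51), and for read pairs with exactly 2 start sites (3.04) or gaps up to 500 bp (3.76). At a minimum of 10 the one-start median was 0 for both measures in T-47D and Ishikawa. Both measures there give the share of anchors with any such loop, so the same value is counted under each. Pairs held in anchors with a loop of 5 or more read pairs came to 41.9% (Ishikawa), 60.7% (T-47D) and 83.6% (LNCaP), and with 10 or more to 23.2%, 36.1% and 71.6%, and genes in no pair also fell, to 16.5%, 18.2% and 34.5% at 10 or more. Leaving out histone anchors or anchors without a partner, also chosen after the data were seen, moved no value out of its interval. No paired analysis was possible because each list merges the samples of a cell line and its columns carry no replicate. The Ishikawa list is made of 4 parts, which neither the file nor the labels tie to samples. Leaving out each part in turn, chosen after the data were seen, gave -3.86 to -2.87 points for partners and -5.25 to -2.15 for read pairs, with an interval that excludes 0 only for read pairs without part 3 (-9.63 to -0.76). Loops under 3 read pairs or without a low false discovery rate are outside the lists. A pair in no anchor therefore had no contact kept in that list, and absence of contact was not tested. Read pairs were fewest in T-47D, while the fewest pairs were held in Ishikawa.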
